A study of Mus musculus with 3 samples.

Results

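The cells described here are non-cycling glioma cells of 3 mouse brain tumours that carried at least 3 transcripts of the receptor gene Pdgfra, set against cells of the same tumours in which none was counted. Of 9642 cell barcodes in the series, 2615 passed the filters and gates, and 453 of these were Pdgfra-high (at least 3 raw unique molecular identifiers, UMIs, each standing for 1 captured transcript) while 1134 were Pdgfra-zero (0 UMIs). Cells under 500 genes or over 20% mitochondrial UMIs were dropped, and the gates kept those with fewer than 3 UMIs per 10000 of 6 mitosis and replication genes (Ube2c, Cenpa, Cenpf, Top2a, Rrm2, Tk1), fewer than 3 of 6 myelin genes (Mog, Mag, Mobp, Mal, Ermn, Opalin) and fewer than 15 of 6 myeloid genes (C1qa, C1qb, C1qc, Tyrobp, Fcer1g, Ctss). Inside each tumour a high cell was paired with the unused zero cell nearest in total UMIs other than Pdgfra, within 5%. High cells without such a partner were dropped. This left 364 of the 453 in pairs: 254, 7 and 103 pairs in tumours 1, 2 and 4. The deepest high cells went: in tumour 1 the largest total fell from 69774 to 38028 UMIs and the largest Pdgfra count from 14 to 10. The level of Pdgfra chose the cells, so its values are a description, and it and the 18 gate genes were left out of every test.

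All 3 tumours share 1 genotype, H3f3a K27M, Pdgfra D842V and Trp53 R270H, delivered by electroporating the brain of mice heterozygous for the reporter allele Gt(ROSA)26Sortm4(ACTB-tdTomato,-EGFP)Luo on a B6.129(Cg) background, on postnatal day 1 or 2 with constructs named MADR. Tumour 1 was taken on postnatal day 150, tumour 2 on day 106 and tumour 4 on day 149, and GFP-positive cells were sorted from dissected tumours and profiled as 1 droplet library each (10x Genomics 3′ kit, version 2). There is no tumour without the altered Pdgfra, and no source used here gives the promoter that drives it, so the cells called zero carry the same constructs as far as the labels say. A 3′ library does not read the altered codon, and transcripts of the native gene and of a construct cannot be told apart in these counts.

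The libraries held 47120617, 15231673 and 53551127 UMIs in tumours 1, 2 and 4, of which the matched high cells contributed 3316179, 49271 and 1445453 and the matched zero cells 3248450, 49240 and 1426282. Tumour 2 thus enters with 7 cells an arm: there 1 UMI is worth 20.3 CPM (counts scaled to a sum of 1000000 UMIs other than Pdgfra), and a gene with no UMI can lie anywhere up to 60.9 CPM, the level of 3 counts. Depth was matched closely, with medians of 12059, 6614 and 13813 UMIs in the high cells of tumours 1, 2 and 4 and of 12054.5, 6556 and 13800 in the zero cells. The median mitochondrial share was higher in high than in zero cells, at 4.85%, 7.96% and 5.03% against 4.48%, 5.69% and 4.86%, and its part in the results was not tested. The libraries shared 6 to 20 barcode sequences by pair, and the gated cells at most 5.

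Pdgfra is the receptor tyrosine kinase for platelet-derived growth factors, above all the ligand PDGF-A. In the developing brain it marks oligodendrocyte progenitor cells (OPCs), which need the ligand to divide and migrate and which lose the receptor as they mature towards myelinating cells. Bound receptors dimerise and signal through Ras and the MAP kinases, PI3 kinase and phospholipase C, and changed forms of the receptor that signal without ligand occur in childhood high-grade gliomas beside the histone H3.3 mutation.

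High cells made up 22.0% (exact binomial 95% interval 19.8 to 24.2) of the 1412 gated cells of tumour 1, 5.11% (2.08 to 10.2) of 137 in tumour 2 and 12.8% (10.8 to 14.9) of 1066 in tumour 4. At least 1 UMI was counted in 64.4%, 17.5% and 51.3% of gated cells, so most cells with any Pdgfra lay below the limit of 3. The median high cell held 4 UMIs in tumours 1 and 2 and 3 in tumour 4, the most being 14, 10 and 8, and in the matched arms Pdgfra stood at 311, 731 and 272 CPM against 0. At the limit itself, 127 of 310 high cells of tumour 1, 2 of 7 of tumour 2 and 69 of 136 of tumour 4 had exactly 3 UMIs, and 240, 5 and 139 gated cells just outside it had 2. Raw counts follow depth: the median cell of tumour 1 had 9780 UMIs in the zero class and 15550.0 in the class of 5 or more, and in tumour 4 the medians were 7649 and 21453.5, which is why arms were matched. Thinned to 5000 UMIs a cell, 4.76% (3.71 to 6.004), 7.45% (3.05 to 14.7) and 3.16% (2.14 to 4.48) of cells kept at least 3, and the interval of tumour 2, from 7 of 94 cells, covers the shares of both others. A count of 0 does not show that a cell lacked the transcript. Pdgfra was also read in cells over the myeloid gate only, which should lack it: 42.9% of 91 such cells in tumour 1 (median 12031 UMIs), 2.49% of 201 in tumour 2 (6897) and 21.4% of 56 in tumour 4 (8804.0) had a UMI, and 15.4%, 0.498% and 1.79% had 3 or more.

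**Figure D1:**
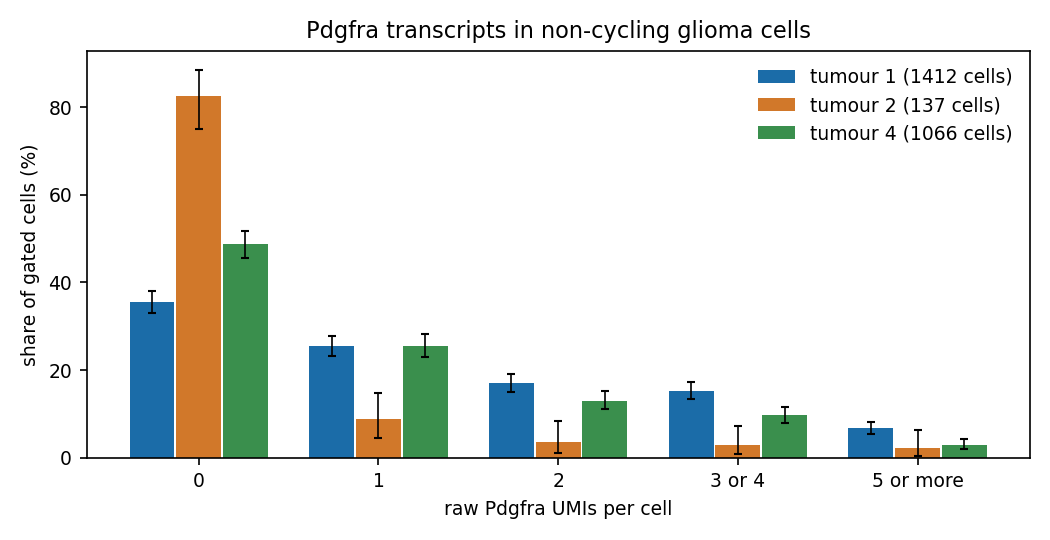
Share of gated cells (vertical axis, %) by the number of raw Pdgfra UMIs in the cell (horizontal axis), with exact binomial 95% intervals, for tumours 1, 2 and 4. Zero cells are 82.5% of tumour 2 against 35.6% of tumour 1 and 48.7% of tumour 4.

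The comparison of high with zero cells asked which other genes differ with Pdgfra among cells of like depth. Of 9212 genes tested, 206 passed (2.24%) by edgeR's quasi-likelihood test on the 6 sums with tumour as the pair and Benjamini-Hochberg adjusted p under 0.05. Higher in high cells were 72 genes (0.782% of those tested) and lower 134 (1.45%). The sign was the same in all 3 tumours for 166 of the 206, as it was for 32.5% of all genes tested, and the same in tumours 1 and 4 for 199. A gene with equal counts in both arms of tumour 2, also with none, was scored there as lower. The cause is the library totals, 49271 UMIs in high and 49240 in zero cells. Agreement in all 3 tumours is thus overstated for lower genes. The higher genes included 11 from the OPC list, and the lower ones 10 from the astrocyte, 9 from the mesenchymal, 7 from the interferon and 5 from the neuronal list. The p-values rest on these 3 libraries only, and edgeR draws each gene's variance estimate towards that of all genes tested. They are therefore not a measure of a gene's own spread between tumours. Tumour 2 gives few UMIs: 86 of the 206 genes had fewer than 5 UMIs there in both arms together. Without tumour 2, 29 of 10631 genes passed (0.273%), 7 higher (0.0658%) and 22 lower (0.207%), and all 29 were among the 206. In that fit 1114 genes had an unadjusted edgeR p under 0.05, against 900 of 9212 with all 3 tumours. Without tumour 1, without tumour 4 and by DESeq2 on all 3 tumours 0 genes passed, with 138, 119 and 125 genes at an unadjusted p under 0.05 against 900 by edgeR (9.77%). As sums, these values cannot tell fewer cells with a transcript from less of it in each cell, so the share of cells with a UMI is given where it bears on a result.

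Part of the OPC genes were higher in Pdgfra-high cells. Of 35 OPC genes listed besides Pdgfra, 34 passed the filter on low counts, 11 were higher, 0 were lower, and 31 of the 34 had a positive log2 fold change with a median of 0.44, against 4364 of 9212 and -0.01 for all genes tested. The 11 were Cntn1, Ptprz1, Xylt1, Tnr, Olig1, Sox6, Cspg5, Ednrb, Lhfpl3, Epn2 and Vcan, where 0.782% of all genes tested were higher. Summed over the list, the level was 5283, 11021 and 6756 CPM in the high cells of tumours 1, 2 and 4 and 3891, 3615 and 5017 CPM in the zero cells.

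The surface protein gene Cntn1 (contactin 1, an adhesion protein of the immunoglobulin family; chr15:92051165-92341967, plus strand) had the smallest p of the higher genes. It was at 211, 507 and 178 CPM in the high cells of tumours 1, 2 and 4 and at 106, 102 and 77.1 CPM in the zero cells. The lowest high value lies above the highest zero value. The log2 fold change was 1.11 ± 0.14 (SE, 3 pairs; adjusted p = 1.78e-12) and 1.07 without tumour 2 (adjusted p = 0.0181). A UMI was found in 88.6% of high and 58.3% of zero cells in tumour 1, in 85.7% and 42.9% in tumour 2, and in 80.6% and 46.6% in tumour 4, so the difference also appears in the share of cells that held the transcript.

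Ptprz1, a receptor phosphatase of progenitors that binds contactin 1 and the growth factor pleiotrophin (chr6:22875502-23052916, plus strand), was at 598, 1421 and 830 CPM in high cells against 437, 345 and 528 CPM in zero cells. Again all high values exceed all zero values. Its log2 fold change was 0.67 ± 0.11 (adjusted p = 2.62e-06; 0.54 and adjusted p = 0.0467 without tumour 2). Olig1, a helix-loop-helix factor of the oligodendrocyte lineage (chr16:91269772-91271933, plus strand), was at 1466, 1624 and 2167 CPM in high cells and at 1097, 569 and 1655 in zero cells. Here the arms overlap between tumours, since the zero cells of tumour 4 lie above the high cells of tumours 1 and 2, but each tumour's own pair goes the same way (log2 fold change 0.52 ± 0.11, adjusted p = 3.52e-04; 0.40 and 0.0347 without tumour 2). Nearly all cells of both arms in tumours 1 and 4 had an Olig1 UMI, from 97.2% to 100.0%, so there the difference lay in the amount per cell and not in its presence.

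The other OPC genes that passed did so in the fit with tumour 2 only. Xylt1, which starts the sugar chains of proteoglycans, had a log2 fold change of 0.85 ± 0.16 (adjusted p = 2.06e-05; 0.0581 without tumour 2), and Tnr, the matrix protein tenascin R, one of 0.79 ± 0.15 (3.38e-05; 0.0763). Sox6, a factor that holds progenitors back from maturing, had one of 0.57 ± 0.13 (adjusted p = 0.0017; 0.118 without tumour 2). Ednrb, the endothelin B receptor, had a log2 fold change of 1.17 ± 0.28, and its widest pair was that of tumour 2, where the 7 high cells held 31 UMIs and the zero cells 1. In tumour 1 the counts were 64 and 44 and in tumour 4 37 and 15, and without tumour 2 the value was 0.76 (adjusted p = 0.384). Factors that define the lineage had smaller fold changes: Olig2 was at 0.30 ± 0.13 (adjusted p = 0.322) and Sox10 at 0.25 ± 0.13 (0.550), neither of which passed. Cspg4, the NG2 proteoglycan often used with Pdgfra to mark OPCs, was at 0.38 ± 0.21 (adjusted p = 0.589), from 37.7 and 25.9 CPM in tumour 1 and 47.7 and 42.1 CPM in tumour 4.

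**Figure D2:**
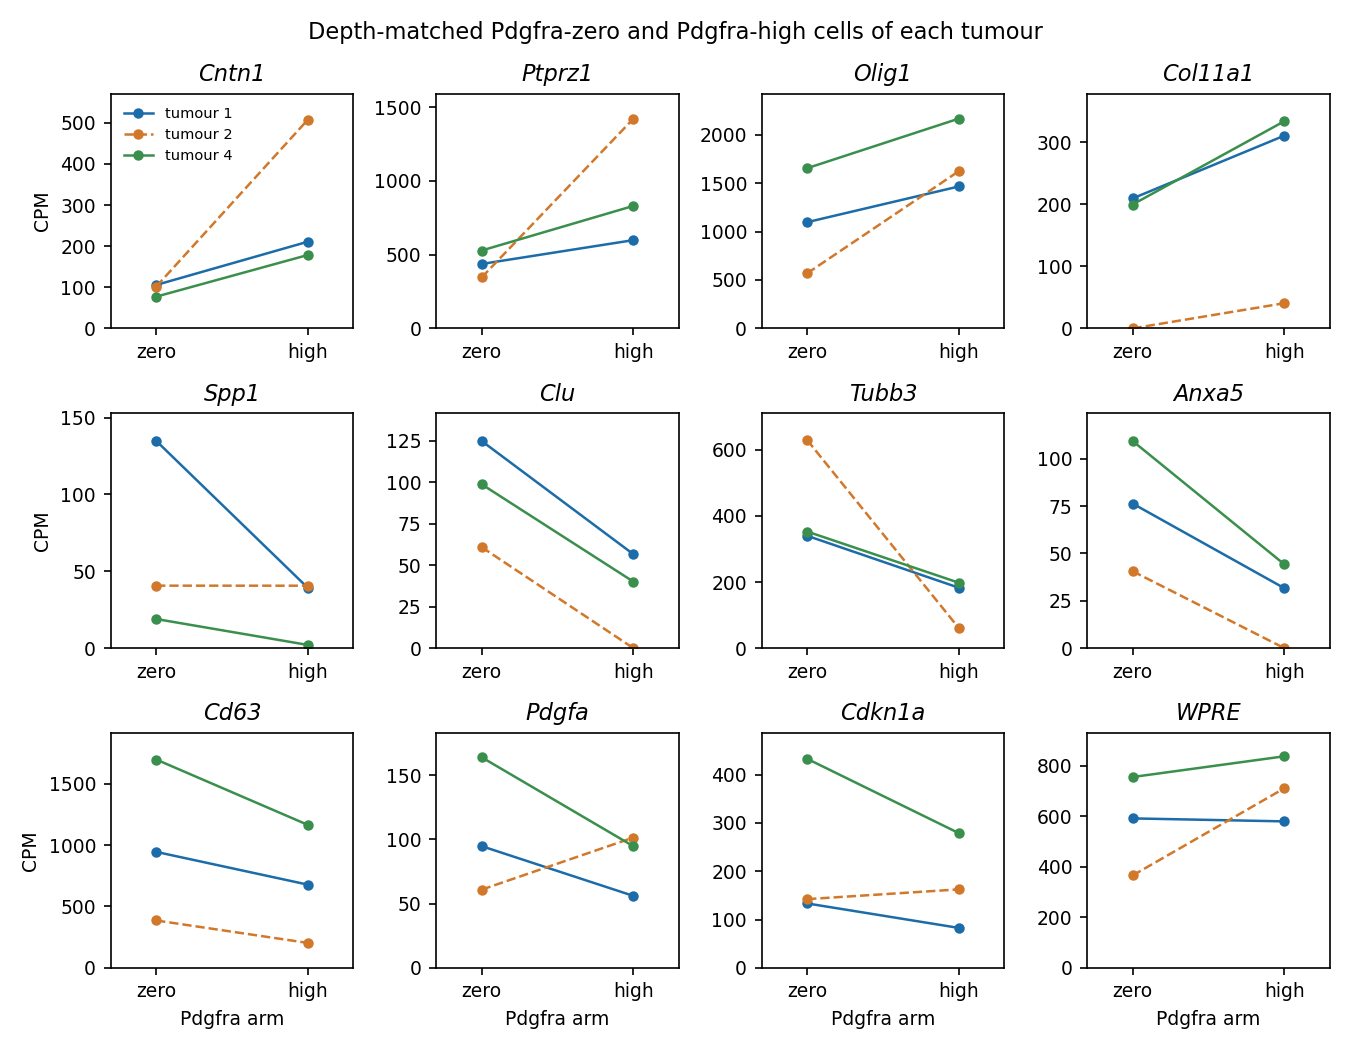
Level in CPM (vertical axes, from 0) of 12 genes in the matched Pdgfra-zero and Pdgfra-high cells of each tumour, 1 line per tumour, with tumour 2 (7 cells an arm) dashed. Lines for Cntn1 and Ptprz1 climb in all 3 tumours, those for Tubb3 and Cd63 fall in all 3, and WPRE, an element of a construct, is nearly level in tumours 1 and 4.

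A few genes by which OPCs receive synaptic input and shape their matrix differed with Pdgfra. Of 23 glutamate receptor and synapse genes 17 were tested, 2 were higher and 0 lower, with a median log2 fold change of 0.43. Among all genes tested 0.782% were higher and 1.45% lower, and without tumour 2 0 of 20 tested genes of this list passed. Gria2, the AMPA receptor subunit that limits calcium entry, was at 226, 670 and 206 CPM in high cells and at 132, 386 and 147 in zero cells. Within each tumour the high cells lay above the zero cells, although the zero cells of tumour 2 exceeded the high cells of the other tumours. The log2 fold change was 0.64 ± 0.13 (adjusted p = 1.64e-04; 0.073 without tumour 2). Nlgn3, the adhesion protein neuroligin 3, was at 116, 244 and 109 CPM against 74.5, 60.9 and 60.3 CPM, without overlap between the arms (0.73 ± 0.14, adjusted p = 9.77e-05; 0.0757 without tumour 2). The kainate, NMDA and remaining AMPA receptor genes tested did not pass.

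Among 21 glial matrix genes, 18 were tested, 5 were higher (Tnr, Col11a1, Mmp15, Cspg5, Vcan) and 2 lower (Sparcl1, Sparc), beside 0.782% and 1.45% of all genes tested. Col11a1, a fibril collagen chain (chr3:114030540-114220718, plus strand), was at 311, 40.6 and 334 CPM in high cells and at 210, 0 and 200 CPM in zero cells, where 40.6 CPM in tumour 2 is 2 UMIs. In tumours 1 and 4 both high values exceed both zero values, with a log2 fold change of 0.63 ± 0.13 (adjusted p = 2.50e-04; 0.64 and 0.0467 without tumour 2). Among the higher genes outside the lists, Opcml, another adhesion protein of the immunoglobulin family, had a log2 fold change of 0.76 ± 0.14 (adjusted p = 8.16e-06; 0.0347 without tumour 2). Ncald, the calcium sensor neurocalcin delta, was at 0.58 ± 0.13 (7.92e-04; 0.0363), and the transcript 3110035E14Rik was at 0.73 ± 0.14 (2.12e-05; 0.0380). These 3 genes are named because they passed with and without tumour 2, a choice made after their values were seen.

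The ligand gene Pdgfa was lower where its receptor was high. Pdgfa (chr5:138976014-138997370, minus strand) was at 56.1, 101 and 94.8 CPM in the high cells of tumours 1, 2 and 4 and at 94.8, 60.9 and 164 CPM in the zero cells. Tumours 1 and 4 go one way and tumour 2, with 5 and 3 UMIs, the other. The log2 fold change was -0.78 ± 0.14 (adjusted p = 1.50e-05) and -0.78 without tumour 2 (adjusted p = 0.0393). In tumour 1, 43.7% of high and 49.2% of zero cells had a Pdgfa UMI, and in tumour 4 57.3% and 70.9%. The other ligands were rare in tumours 1 and 4: Pdgfb had at most 2.15 CPM and Pdgfc at most 4.52 CPM in any arm, and no Pdgfd UMI was counted in the matched cells, which allows up to 0.905 CPM in the high cells of tumour 1. In tumour 2 none of these ligands had a UMI, which allows up to 60.9 CPM, so their rarity is not shown there. Pdgfrb, the second PDGF receptor and a marker of mural cells, was at 0.302 and 3.08 CPM in high and zero cells of tumour 1. Pdgfrl, a receptor-like gene, had at most 3 UMIs in any arm. None of these 5 genes passed the filter on low counts.

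Genes beside Pdgfra on chromosome 5 and the engineered genes were examined in the same cells. Pdgfra lies at chr5:75152292-75198215 (GRCm38, plus strand). Of 10 listed neighbours 8 were tested and 0 passed, with a median log2 fold change of 0.29, and the nearest ones tested were Lnx1 at 0.90 ± 0.29 (adjusted p = 0.0775), a gene also on the OPC list, Fip1l1 at 0.38 ± 0.14 (0.139), Chic2 at 0.19 ± 0.14 (0.785) and Kit, a receptor kinase, at 0.45 ± 0.31 (0.754). Farther out, Scfd2 was at 0.80 ± 0.29 (adjusted p = 0.150), Srd5a3 at -0.38 ± 0.30 (0.826), Tmem165 at 0.20 ± 0.20 (0.886) and Clock at -0.01 ± 0.20 (0.996), and Gsx2 and Kdr were too low to test. WPRE, a viral element read as a gene and part of a construct, was at 580, 710 and 837 CPM in high cells and 591, 366 and 755 CPM in zero cells. Its difference, 0.10 ± 0.11 on the log2 scale (adjusted p = 0.901), was smaller than its error. H3f3a was at -0.06 ± 0.10 (adjusted p = 0.944) and Trp53 at -0.29 ± 0.14 (0.457), and neither passed.

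Genes downstream of the receptor gave few calls, but only 2.24% of all genes tested passed. In lists of this length a count of 0 or 1 is near that share. Of 37 genes for proteins of PDGF receptor signalling 32 were tested, and only Pik3r1, the regulatory subunit of PI3 kinase, passed, at 160, 122 and 176 CPM in high cells against 97.0, 142 and 154 CPM in zero cells. Tumour 2 runs against the others there, and the fold change of 0.44 ± 0.13 on the log2 scale was at the threshold (adjusted p = 0.0495; 0.247 without tumour 2). None of 18 tested MAP kinase feedback and ETS genes passed in either direction (median 0.03). Etv5, an ETS factor induced by this pathway, was nearest, at 101, 142 and 69.2 CPM against 78.8, 40.6 and 47.7 CPM, a log2 fold change of 0.41 ± 0.15 (adjusted p = 0.172). The feedback genes Dusp6 at 0.04 ± 0.16 (adjusted p = 0.984), Spry2 at 0.01 ± 0.15 (0.995) and Spry1 at 0.47 ± 0.21 (0.370), and the cyclin gene Ccnd1 at 0.09 ± 0.11 (0.913), did not pass. Of 19 tested immediate early genes 0 were higher, and Atf3, a stress-induced factor, was lower at -0.69 ± 0.14 (adjusted p = 2.39e-04; 0.146 without tumour 2). Fos was at 0.18 ± 0.10 (adjusted p = 0.609) and Egr1 at 0.19 ± 0.11 (0.638). Among 15 tested receptor kinases other than the PDGF receptors 0 passed, the nearest being the neuregulin receptor Erbb3 at 0.97 ± 0.33 (adjusted p = 0.0988).

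**Figure D3:**
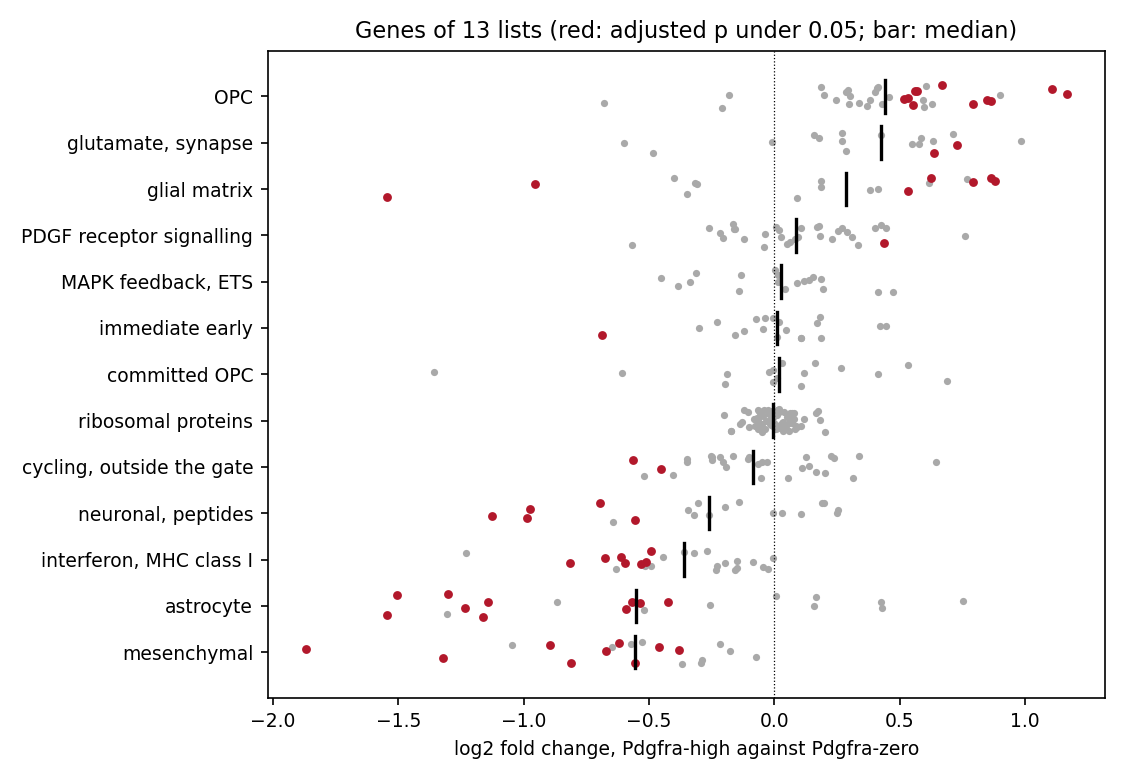
Log2 fold change, Pdgfra-high against Pdgfra-zero (horizontal axis), of every tested gene in 13 lists (rows), with genes of adjusted p under 0.05 in red and a bar at the list's median. Red points lie to the right in the OPC row and to the left in the astrocyte, mesenchymal and interferon rows, while the ribosomal row centres on 0.

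Part of the astrocyte genes were lower in high cells. Of 24 genes 20 were tested, 10 were lower (Clu, Id3, Sparcl1, Sox9, Mt1, Apoe, Gfap, Aldh1l1, Mlc1, Mt3), 0 were higher, and the median was -0.55. Of the 20, 6 had a positive log2 fold change, and the share lower among all genes tested was 1.45%. Clu, the secreted chaperone clusterin (chr14:65968483-65981547, plus strand), was at 56.7, 0 and 40.1 CPM in high cells and at 125, 60.9 and 98.9 CPM in zero cells. In tumours 1 and 4 both high values lie below both zero values, and in tumour 2, with 0 and 3 UMIs, the arms cannot be separated. The log2 fold change was -1.24 ± 0.15 (adjusted p = 2.03e-12; -1.20 and 0.0181 without tumour 2). Clu was seen in similar shares of cells, 37.4% of high and 35.04% of zero cells in tumour 1 and 35.9% and 39.8% in tumour 4, and the 5 zero cells with most Clu held 208 of the arm's 406 UMIs in tumour 1 and 82 of 141 in tumour 4, against 47 of 188 and 15 of 58 for the 5 richest high cells. The zero arm thus held a few cells with much Clu. Id3, a target of BMP signalling, was at 39.5, 40.6 and 41.5 CPM against 102, 81.2 and 67.3 CPM (-1.16 ± 0.16, adjusted p = 1.71e-09; 0.0526 without tumour 2), and Sox9, a factor of astrocytes and early glia, at 22.9, 0 and 20.8 CPM against 41.9, 264 and 49.1 CPM (-1.14 ± 0.22, 5.39e-05; 0.0981). All high values of Id3 lie below all its zero values, and for Sox9 this holds in tumours 1 and 4, since no UMI in 7 cells of tumour 2 allows up to 60.9 CPM. The 5 zero cells with most Id3 held 130 of 330 UMIs in tumour 1 and 53 of 96 in tumour 4. The 5 richest high cells held 47 of 131 and 21 of 60, so in tumour 4 the difference lay largely in a few zero cells. The glutamate transporter gene Slc1a2 did not pass and was at 0.43 ± 0.22 (adjusted p = 0.515).

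For some of these genes tumour 4 did not share the difference. Gfap, the astrocyte filament protein, was at 101 and 221 CPM in high and zero cells of tumour 1 but at 266 and 270 CPM in tumour 4. Sparcl1, a matrix protein of astrocytes and vessels, was at 27.4 and 92.7 CPM in tumour 1 and at 11.1 and 11.9 CPM in tumour 4, and had no UMI in tumour 2; its call (-1.54 ± 0.22, adjusted p = 2.26e-09) thus rests on tumour 1, where the 5 richest zero cells held 64.8% of its UMIs and the 5 richest high cells 56.0%. Vessel markers moved the same way in tumour 1: 11 mural cell genes summed to 62.1 CPM in high and 190 CPM in zero cells there, 36.7 and 42.8 CPM in tumour 4, and 0 and 81.2 CPM in tumour 2, and 4 endothelial genes to 3.92 and 20.01, 1.38 and 4.21, and 40.6 and 0 CPM in the same order. With all cells left out that had a UMI of the 4 mural (Rgs5, Kcnj8, Abcc9, Higd1b), 4 endothelial, 4 fibroblast or 9 T and NK cell genes measured, 133 of 8292 genes passed (1.6%), 48 higher (0.579%) and 85 lower (1.03%), and 119 of them were among the 206. This filter took the high cells of tumour 1 from 310 to 186. Before it, Kcnj8 alone gave 103 of the 114 UMIs of the 4 mural genes in the matched high cells of tumour 1. It gave 119 of 367 in the zero cells, so many cells were left out for Kcnj8 at like counts in both arms. In the fit of the remaining cells 10 of 31 OPC genes were higher, and 8 of 20 astrocyte, 8 of 19 mesenchymal and 9 of 25 interferon genes were lower. There Sparcl1 was at -1.92 (adjusted p = 4.67e-07), Clu at -1.39 (5.64e-10) and Ly6c1, an endothelial and interferon-induced surface protein, at -2.69 (2.37e-09), while Sparc, a matrix protein, went from -0.96 (7.34e-09) to -0.49 (0.199).

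Part of the genes of a mesenchymal or wound state were lower. Of 22 listed, 19 were tested, 9 were lower (Spp1, Anxa5, Timp1, Cd63, Lgals3, S100a11, Tmsb4x, Lgals1, Anxa2), 0 were higher, and none of the 19 had a positive log2 fold change (median -0.56). Among all genes tested 1.45% were lower. Spp1, the secreted protein osteopontin (chr5:104435118-104441050, plus strand), was at 39.2, 40.6 and 2.08 CPM in high cells and at 135, 40.6 and 18.9 CPM in zero cells. The pairs of tumours 1 and 4 differ widely and tumour 2, with 2 UMIs in each arm, not at all. Its log2 fold change was -1.87 ± 0.19 (adjusted p = 1.71e-18; -1.88 and 0.0181 without tumour 2), but 27.2% of high and 30.3% of zero cells of tumour 1 had a UMI, and the 5 richest cells held 53.2% of the zero arm's Spp1 and 46.9% of the high arm's. Anxa5, a membrane-binding annexin (chr3:36448923-36475894, minus strand), was at 31.7, 0 and 44.3 CPM against 76.3, 40.6 and 109 CPM, a log2 fold change of -1.32 ± 0.17 (adjusted p = 4.90e-12; 0.0181 without tumour 2). Timp1, an inhibitor of matrix metalloproteases, was at 108, 20.3 and 133 CPM against 198, 0 and 213 CPM (-0.81 ± 0.13, adjusted p = 8.63e-07; 0.0347), and Cd63, a lysosome and exosome protein, at 678, 203 and 1164 CPM against 944, 386 and 1697 CPM (-0.56 ± 0.11, 1.64e-04; 0.0240). For Cd63 all 3 pairs fell, and for Timp1, whose single UMI in tumour 2 goes the other way, the 5 richest zero cells of tumour 1 held 13.1% of the UMIs. Vim, the filament protein vimentin, was abundant in both arms and did not pass (-0.18 ± 0.12, adjusted p = 0.706).

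Neuronal genes were lower in part. Of 27 neuronal and peptide genes 19 were tested and 5 were lower (Tubb3, Penk, Vgf, Nefm, Scg2), with a median of -0.26. Of the 19, 0 were higher by the test, but 6 had a positive log2 fold change. The share lower among all genes tested was 1.45%. Tubb3, a tubulin of young neurons (chr8:123411424-123422015, plus strand), was at 183, 60.9 and 198 CPM in high cells and at 340, 630 and 353 CPM in zero cells. All high values lie below all zero values, and 75.6% of high and 83.5% of zero cells of tumour 1 had a UMI, with 75.7% and 87.4% in tumour 4. The log2 fold change was -0.99 ± 0.13 (adjusted p = 1.73e-11; -0.88 and 0.0181 without tumour 2). Penk, the precursor of the enkephalin peptides, was at 55.8 and 107 CPM in tumour 1 and 53.3 and 102 CPM in tumour 4, with no UMI in tumour 2 (-0.97 ± 0.15, 9.50e-08; 0.0294). Vgf, a secreted granin-like protein, was at 388 and 799 CPM in tumour 1 but at 556 and 534 CPM in tumour 4, so its call (-0.56 ± 0.13, 0.00275) was not shared by tumour 4. Cd24a, a surface protein of neuroblasts, was at 28.3, 183 and 26.3 CPM against 44.0, 528 and 77.1 CPM (-1.07 ± 0.19, 3.42e-06; 0.154 without tumour 2).

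Interferon response genes were lower in part. All 25 listed interferon and MHC class I genes were tested, 7 were lower (Isg15, Ifit1, Bst2, Ifit3, H2-T23, Ifitm3, Gbp3), 0 were higher, and none had a positive log2 fold change (median -0.36). Among all genes tested 1.45% were lower. Summed over the list, the level was 8364, 5703 and 13311 CPM in the high cells of tumours 1, 2 and 4. The zero cells stood at 11291, 4915 and 14527 CPM, so tumour 2, with 7 cells an arm, went the other way. Isg15, a ubiquitin-like protein, was at 111, 142 and 250 CPM in high cells and at 245, 284 and 327 CPM in zero cells, a fall in each of the 3 pairs (-0.82 ± 0.13, adjusted p = 1.75e-07; 0.146 without tumour 2). A UMI was found in 49.6% of high and 68.1% of zero cells of tumour 1, and in 79.6% and 78.6% in tumour 4. Ifit1, which binds foreign RNA, was at 53.7, 20.3 and 189 CPM against 127, 81.2 and 194 CPM (-0.68 ± 0.14, adjusted p = 3.73e-04; 0.518 without tumour 2). Ifit3, its partner, was at 52.5, 81.2 and 163 CPM against 104, 0 and 196 CPM (-0.61 ± 0.14, 0.00126; 0.235), and Bst2, the membrane protein tetherin, at 491, 122 and 1017 CPM against 861, 203 and 1153 CPM (-0.53 ± 0.12, 5.98e-04; 0.223). The differences were thus large in tumour 1 and small in tumour 4, whose cells carried more of these transcripts in both arms, and 0 of the 25 passed without tumour 2. Whether the tumours differ in this was not tested. H2-D1, H2-K1 and B2m, the chains of MHC class I, did not pass, at -0.15 ± 0.11 (adjusted p = 0.789), -0.15 ± 0.11 (0.790) and -0.08 ± 0.10 (0.911).

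The promoters of 4 of these genes show the element they share, and for that reason are printed here from RefSeq (GRCm38.p6), each as the 250 bases before the annotated start, 5′ to 3′ on the gene's strand, with every match to the interferon element in capitals. The element was searched as GAAA, any 2 bases and GAAA, or on the other strand TTTC, any 2 bases and TTTC, a core bound by interferon-regulated factors. Isg15 lies on the minus strand at chr4:156200819-156201068, Ifit1 on the plus strand at chr19:34640639-34640888, Ifit3 on the plus strand at chr19:34583279-34583528 and Bst2 on the minus strand at chr8:71537473-71537722.
Isg15: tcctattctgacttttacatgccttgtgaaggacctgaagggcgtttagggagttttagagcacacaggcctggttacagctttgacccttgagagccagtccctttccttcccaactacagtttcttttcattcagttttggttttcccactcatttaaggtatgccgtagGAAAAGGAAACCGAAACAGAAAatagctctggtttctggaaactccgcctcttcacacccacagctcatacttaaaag
Ifit1: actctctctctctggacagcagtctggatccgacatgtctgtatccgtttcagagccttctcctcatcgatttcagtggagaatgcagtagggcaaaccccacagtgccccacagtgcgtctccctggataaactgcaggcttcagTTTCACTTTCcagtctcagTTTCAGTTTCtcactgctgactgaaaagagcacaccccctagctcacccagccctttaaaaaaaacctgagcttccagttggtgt
Ifit3: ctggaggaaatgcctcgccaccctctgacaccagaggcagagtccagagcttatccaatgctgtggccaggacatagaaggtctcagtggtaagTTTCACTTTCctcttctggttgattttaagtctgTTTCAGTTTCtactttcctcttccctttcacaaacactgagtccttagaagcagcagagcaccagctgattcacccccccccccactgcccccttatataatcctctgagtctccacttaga
Bst2: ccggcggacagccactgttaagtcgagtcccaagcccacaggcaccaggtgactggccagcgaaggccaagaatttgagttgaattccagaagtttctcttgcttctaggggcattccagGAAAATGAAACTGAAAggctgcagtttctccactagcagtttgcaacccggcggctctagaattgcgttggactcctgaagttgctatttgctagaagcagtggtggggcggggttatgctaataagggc
Isg15 holds 3 overlapping matches, which begin at -78, -72 and -66 from the start, Ifit1 holds 2 at -104 and -85, Ifit3 holds 2 at -156 and -122, and Bst2 holds 2 overlapping ones at -130 and -124. A match was held by 3.46% of the 27025 genes with a RefSeq promoter, and by 230 of 7096 tested genes (3.24%), 10 of 22 genes of the interferon list, 6 of its 7 lower members, 15 of 98 genes called lower (15.3%) and 3 of 56 called higher (5.36%). Of the 72 higher and 134 lower genes, 56 and 98 had an entry. Of 26 OPC promoters 0 held it. The SOX core AACAAT (reverse complement ATTGTT) was in 5 of the 56 higher genes (8.93%) and 7 of the 98 lower genes (7.14%) against 6.41% of tested genes, and 3 of 8 higher OPC genes with an entry had it, Cntn1, Epn2 and Sox6. The E-box CAGCTG, its own reverse complement, was in 9 of the 56 higher genes (16.1%), 22 of the 98 lower genes (22.4%), 5 of 22 genes of the interferon list and 13.7% of tested genes. These matches describe the sequence and not the binding of any factor.

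Cell cycle genes outside the gate gave 2 calls, both lower, where 1.45% of all genes tested were lower. Of 30 tested, 0 were higher and 2 lower, Tubb4b and Stmn1, and the median was -0.08. Cdkn1a, the cell cycle inhibitor p21 and a p53 target (chr17:29090976-29100727, plus strand), was at 82.6, 162 and 279 CPM in high cells and at 133, 142 and 433 CPM in zero cells, lower in tumours 1 and 4 and not in tumour 2 (-0.66 ± 0.13, adjusted p = 9.48e-05; 0.0382 without tumour 2). Without cells that had a UMI of the mural (Kcnj8 among them), endothelial, fibroblast or T and NK cell genes its value was -0.35 (adjusted p = 0.425). Of 15 tested p53 targets Cdkn1a alone passed. Ccnd3, a D-type cyclin, was at 128, 81.2 and 149 CPM against 87.4, 40.6 and 97.5 CPM (0.55 ± 0.14, adjusted p = 0.0051; 0.101). Igfbp2, an insulin-like growth factor binding protein, had the lowest log2 fold change of the genes chosen by size, -2.25 ± 0.31 (adjusted p = 6.23e-10; 0.0279), with 39, 1 and 1 UMIs in the high cells of tumours 1, 2 and 4 and 170, 14 and 3 in the zero cells. In tumour 1 the 5 richest zero cells held 99 of the 170 UMIs and the 5 richest high cells 11 of the 39. A UMI of Igfbp2 was found in 12.6% of high and 15.7% of zero cells there. Igf1 was at 6.63, 0 and 31.8 CPM against 30.8, 40.6 and 62.4 CPM (-1.55 ± 0.25, 5.32e-07; 0.118). Nupr1, a stress-induced chromatin protein, was at 40.7, 0 and 4.15 CPM against 103, 20.3 and 24.5 CPM (-1.50 ± 0.20, 4.48e-11; 0.0347).

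Several groups gave no call or few, where 2.24% of all genes tested passed, so 0 calls in a short list is near that share. None of 74 tested ribosomal protein genes, 12 Notch pathway genes, 10 PRC2 genes or 17 cholesterol synthesis genes passed, with medians of -0.01, -0.12, -0.01 and 0.08. Committed OPC genes, which mark the step after Pdgfra is lost, gave 0 calls of 16 (median 0.02), Gpr17 standing at 0.01 ± 0.20 (adjusted p = 0.997). Of 17 myelin genes outside the gate Gjc3, a connexin, was higher (0.50 ± 0.15, adjusted p = 0.037) and Trf, transferrin (-1.22 ± 0.19, 2.76e-08), and Ptgds, prostaglandin D synthase (-0.54 ± 0.13, 0.00381), were lower, none of them without tumour 2. Of 11 tested myeloid genes outside the gate H2-Aa was lower (-0.73 ± 0.21, 0.0288), and the 22 measured summed to 382, 589 and 297 CPM in high cells and 456, 589 and 330 CPM in zero cells. The mitochondrial transcripts mt-Atp6 (0.30 ± 0.09, adjusted p = 0.0352) and mt-Co3 (0.31 ± 0.09, 0.0473) passed beside the higher mitochondrial share of the matched high cells, but not without tumour 2 (adjusted p = 0.256 and 0.258). Their direction turned without the depth match, to -0.0381 for the log2 fold change of mt-Atp6 and -0.0390 for the log2 fold change of mt-Co3, where the median mitochondrial share was 4.80% in high and 4.83% in zero cells of tumour 1 and 4.70% and 5.40% in tumour 4. It turned as well in cells thinned to 5000 UMIs, at -0.0403 and -0.0367.

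Levels were also taken in all gated cells by their number of Pdgfra UMIs, as a description, since the classes differ in depth. Summed OPC genes were at 4024, 4521, 4810, 4917 and 5253 CPM in tumour 1 for cells with 0, 1, 2, 3 or 4, and 5 or more UMIs, and at 5219, 5765, 6259, 6361 and 6355 CPM in tumour 4. Cntn1 went from 107 to 142, 167, 185 and 218 CPM in tumour 1 and from 79.3 to 95.9, 103, 150 and 162 CPM in tumour 4, higher at each step. Interferon genes went from 11294 to 10142, 9266, 8488 and 8527 CPM in tumour 1 and from 15439 to 15878, 15150, 13483 and 13196 CPM in tumour 4, where cells with 1 UMI stood above those with 0. Anxa5 went from 67.4 to 46.2, 39.5, 31.2 and 37.5 CPM in tumour 1 and from 105 to 98.7, 77.7, 61.1 and 35.8 CPM in tumour 4. Cells with a single Pdgfra UMI thus lay between the arms for Cntn1 and Anxa5. With high set at 1 UMI 19 of 11572 genes passed and at 5 UMIs 50 of 5395 passed, of which 13 and 42 were among the 206.

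**Figure D4:**
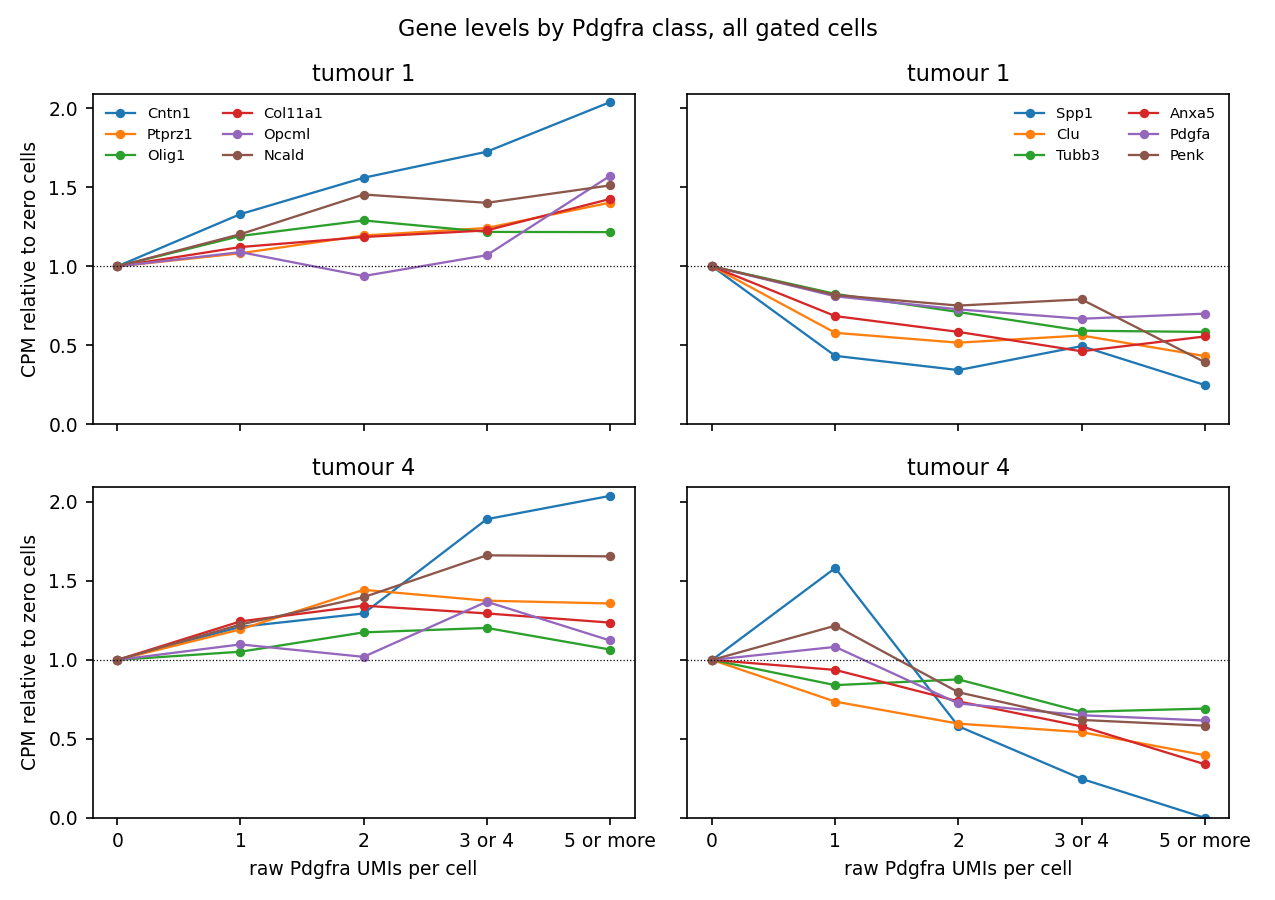
Level relative to Pdgfra-zero cells (vertical axis, ratio of CPM) of 6 genes higher (left) and 6 lower (right) in high cells, by raw Pdgfra UMIs per cell (horizontal axis), in all gated cells of tumours 1 (top) and 4 (bottom). Cntn1 reaches 218 CPM from 107 CPM in tumour 1, while Spp1 is at 0 CPM in the 32 cells of tumour 4 with 5 or more UMIs. Spp1, Pdgfa and Penk stand above the zero cells at 1 UMI in tumour 4.

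The same comparison was made in cells that the gates had left out, a choice made after seeing the data. Among cells over the cycling gate only, with 184, 2 and 81 pairs, 162 of 8851 genes passed (1.83%), 60 higher (0.678%) and 102 lower (1.15%). They were 482 of 10353 without tumour 2, 1 of 7107 without tumour 1 and 0 of 8933 without tumour 4. Of the 162, 84 were among the 206. Of 33 tested OPC genes 8 were higher and 0 lower (median 0.48), of 18 mesenchymal genes 0 and 7 (-0.49), and of 25 interferon genes 0 and 5 (-0.31). The astrocyte list went the other way by its median, 0.20, with 9 of 17 tested genes positive, although 3 were lower and 0 higher. Cntn1 was at 191 and 92.8 CPM in high and zero cycling cells of tumour 1 and at 138 and 46.4 CPM in tumour 4 (log2 fold change 1.22, adjusted p = 4.72e-09). Other genes gave other values there: Olig1 was at 0.11 (adjusted p = 0.875), Clu at 0.20 (0.783), and Etv5 passed at 0.83 (0.0013), with 135 and 85.9 CPM in tumour 1 and 102 and 43.3 CPM in tumour 4. The difference between cycling and non-cycling cells was not tested. Among cells over the myelin gate only, with 64, 15 and 127 pairs, 2 of 7940 genes passed (0.0252%), both lower, with 454 at an unadjusted p under 0.05. They were 49 of 9079, 42 of 9578 and 3 of 6358 without tumours 1, 2 and 4. Cntn1 was at 173, 355 and 126 CPM against 71.9, 45.2 and 69.6 CPM there (1.31, adjusted p = 0.289), and 0 of 30 OPC genes passed (median 0.50). The medians there were 0.14 for astrocyte genes, with 12 of 17 positive, 0.02 for interferon genes, with 14 of 25 positive, and -0.24 for mesenchymal genes, with 4 of 19 positive, and none of these genes passed.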

How the data were processed

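The authors deposited raw UMI counts for each tumour, and these were used throughout. The submitters' processing notes name Cell Ranger 1.3.0, STAR 2.5.1 and mm10; no source used here says how barcodes were called as cells. The authors' normalised tables were not used. Counts of the depth-matched cells were summed per tumour and arm, and CPM are scaled to 1000000 UMIs other than Pdgfra. Genes kept by filterByExpr were tested with edgeR 4.0.16 (TMM, glmQLFit robust, glmQLFTest, tumour as the block, since both arms come from the same tumour) in R 4.3.3, over all genes with Benjamini-Hochberg adjustment. The standard error is the log2 fold change divided by the root of F. The steps were tested on simulated data. DESeq2 1.42.0, library totals, no filter, no block, leaving out each tumour, no depth match, thinning to 5000 UMIs, other limits for Pdgfra and other gates were alternatives.

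With 1 library per tumour, age and library cannot be told apart. Symbols are those of the files, positions those of GENCODE M21 by gene identifier, and promoters those of RefSeq. No doublet caller was run. Named genes are the 12 higher and 12 lower with the largest log2 fold change among those of adjusted p under 0.05, the same sign in 3 tumours and at least 20 CPM in the higher arm of 2 tumours, all members of the PDGF, neighbour and engineered lists, and the 4 of smallest p of each other list; genes passing without tumour 2 were added after their values were seen, and others named with a list are its members that passed or define it. Where both arms of tumour 2 had equal counts, the sign there was scored as lower. The cells and lists were chosen with earlier results of these data known. Intervals and floors cover counting error only.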

Additional observations from a re-analysis of the deposited data

How the results depend on the processing

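Against 206 genes (72 higher, 134 lower), DESeq2 with its size factors called 0 (0 higher, 0 lower) and the fit with no replicate block 0 (0 and 0), with 125 and 58 genes at an unadjusted p under 0.05. Leaving out 1 tumour gave 0 to 29 genes, 0 to 7 higher and 0 to 22 lower, for the comparison, 0 to 482 in cycling cells and 3 to 49 in cells over the myelin gate; without tumours 1 or 4 a single large library remains beside tumour 2. Library totals gave 207 of 9212 (86 and 121) and no filter 191 of 16890. No depth match gave 260 of 11354, with 204 lower, and thinning to 5000 UMIs 171 of 8695, with 37 higher. With high at 1 UMI 19 of 11572 genes passed (6 higher, 13 lower) and at 5 UMIs 50 of 5395 (23 and 27). A cycling gate of 1 per 10000 gave 63 of 8215 (17 and 46) and at least 2 Olig1 and Olig2 UMIs 179 of 9218. Without cells with a UMI of the mural (Kcnj8 among them), endothelial, fibroblast or T and NK cell genes 133 of 8292 passed, 85 of them lower. Fewer cells enter under the limit of 5 UMIs, the stricter gate and the last setting; other causes were not tested. The share of high cells became 64.4%, 17.5% and 51.3% at 1 UMI, 6.73% and 3.00% in tumours 1 and 4 at 5 UMIs, and 4.76% and 3.16% there when thinned.

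Of the named genes with a value by DESeq2, which called 0 genes, 76 lost the call and 1 reversed. The other 73 had passed by neither test, whatever their sign, so no named gene kept a call by DESeq2. The log2 fold change of Nefm reversed without tumour 1 (0.38; -0.76 without tumour 4), the log2 fold change of Ly6a by DESeq2 (0.30) and the log2 fold change of Hspb1 with high at 1 UMI (0.0822). With no depth match and thinned, the log2 fold change of mt-Atp6 reversed to -0.0381 and -0.0403 and the log2 fold change of mt-Co3 to -0.0390 and -0.0367, and thinned the log2 fold change of Ldha to 0.0214. Depth limits tumour 2 most, where 3 counts are 60.9 CPM.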
